A study of Rattus norvegicus with 9 samples.

Results

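Genes of metallothioneins and zinc handling were followed in the superior mesenteric artery (SMA) of the rat: the metallothioneins Mt1a, Mt2A and Mt3, the metal-sensing transcription factor Mtf1, the zinc exporter Slc30a1 and the zinc importer Slc39a14. These 6 genes were chosen by symbol. All of them were among the 37203 gene symbols of the count table and also among the 15482 symbols with enough counts to be tested. The arteries came from Sprague-Dawley rats that were 8 weeks old and weighed 220 to 240 g, with no genotype or allele named. There were 3 libraries each of normal arteries, of arteries taken 1 h into ischemia and of arteries taken 4 h into ischemia, 9 in all. Ischemia was a hemorrhage model, in which rats under pentobarbital were bled through a catheter in the right femoral artery and time ran from when the model was in place. The sources used here do not say whether the normal rats were catheterized or kept under anesthesia for the same time, so surgery, anesthesia and blood loss cannot be told apart.

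Metallothioneins are small proteins, rich in cysteine, that bind zinc and copper inside the cell and also take up cadmium. MTF1 is a zinc finger protein that binds to metal response elements in DNA when free zinc rises, and metallothionein genes and Slc30a1 are among its best known targets. Metallothionein transcription is also known to respond to glucocorticoids, cytokines and low oxygen. SLC30 proteins move zinc out of the cytosol and SLC39 proteins move it in. Slc39a14 also carries iron and manganese and is known as an acute phase gene of the liver, while Mt3 is best known from neurons.

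The libraries held 13114273 to 15504240 counts each, and a level of 1 CPM (counts scaled to library size, adjusted by the TMM method) stood for 12.1 to 17.9 counts. Smooth muscle markers matched the labelled tissue, since each of the 12 was detected in every library, with a summed level of 11597 to 51338 CPM in normal arteries, 13283 to 48509 CPM at 1 h and 25243 to 70655 CPM at 4 h. Markers of peripheral nerve set libraries apart within groups. A nerve score, the mean log2 CPM of 22 neuronal genes, was 4.28, -0.71 and 3.48 in normal replicates 1 to 3, 7.86, 4.68 and 7.85 in replicates 1 to 3 at 1 h, and -0.0039, 0.35 and 7.77 at 4 h. Replicates 1 and 3 at 1 h and replicate 3 at 4 h therefore had far higher levels of neuronal transcripts than the others, and genes that move with this score are given with the score in the fit or without these 3 libraries. Without them only replicate 2 is left at 1 h. In whole tissue, fewer cells of a type and less RNA per cell cannot be told apart.

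The sequences before the start sites show how the metallothionein genes are built. The 250 bases before the annotated start were available for 5 of the 6 genes from RefSeq (rat assembly GRCr8), with Mt1a matched through a synonym to the RefSeq gene Mt1. Slc39a14 had no entry. The letters TGCACNC and TGCGCNC, the core of the metal response element, were searched on both strands. These 4 promoters are shown because they belong to the 3 metallothioneins and to the zinc exporter that shares their regulator. Each is written 5′ to 3′ on the strand of its gene, with the core matches in capitals. Mt1a lies at chr19:10832976-10833225 on the minus strand, Mt2A at chr19:10838709-10838958 on the minus strand, Mt3 at chr19:10856081-10856330 on the minus strand and Slc30a1 at chr13:106021769-106022018 on the plus strand.
Mt1a: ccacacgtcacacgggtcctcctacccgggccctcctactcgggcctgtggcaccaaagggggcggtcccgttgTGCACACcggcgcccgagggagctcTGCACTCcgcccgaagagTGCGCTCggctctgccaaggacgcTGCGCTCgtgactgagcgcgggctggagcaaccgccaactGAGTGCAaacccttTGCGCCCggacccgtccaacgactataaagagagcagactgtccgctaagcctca
Mt2A: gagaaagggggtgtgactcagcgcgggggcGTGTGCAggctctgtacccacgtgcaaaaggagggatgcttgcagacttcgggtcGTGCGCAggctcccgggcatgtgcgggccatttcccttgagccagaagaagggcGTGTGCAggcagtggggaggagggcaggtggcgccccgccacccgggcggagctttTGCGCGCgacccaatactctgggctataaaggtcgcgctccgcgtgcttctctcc
Mt3: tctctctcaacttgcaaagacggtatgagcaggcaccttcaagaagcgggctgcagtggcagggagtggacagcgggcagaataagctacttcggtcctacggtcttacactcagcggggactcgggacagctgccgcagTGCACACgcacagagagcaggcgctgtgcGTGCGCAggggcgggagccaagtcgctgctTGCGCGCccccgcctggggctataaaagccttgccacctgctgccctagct
Slc30a1: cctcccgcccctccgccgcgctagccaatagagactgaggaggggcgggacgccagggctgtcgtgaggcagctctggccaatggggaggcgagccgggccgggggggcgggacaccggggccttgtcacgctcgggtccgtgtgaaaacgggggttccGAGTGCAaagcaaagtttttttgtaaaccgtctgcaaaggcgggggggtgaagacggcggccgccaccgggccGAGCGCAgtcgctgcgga

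Mt1a held 6 core matches in this window, starting at positions -176, -151, -133, -109, -69 and -55, where -1 is the last base before the start. Only 0.0269% of the 33469 RefSeq promoters of the same length held as many. Mt2A held 4, a number reached by 0.266% of promoters, and Mt3 held 3, reached by 1.17%. Slc30a1 and Mtf1 held 2 each, which 4.9% of promoters reached. At least 1 match was present in 20.6% of all promoters, so a single match is common. The 3 metallothioneins each carried a TATA motif (TATAAA, gene strand, present in 8.06% of promoters), whereas Mtf1 and Slc30a1 carried none in this window. Of the motifs of other factors, the hypoxia response core (ACGTG or GCGTG, either strand, 36.7% of promoters) matched 5 times in Mt2A, a number reached by 1.04% of promoters, 2 times in Mt3, reached by 16.0%, and 1 time each in Mt1a, Mtf1 and Slc30a1. Of the 5 matches in Mt2A, 2 were the 2 strands of 1 palindrome, CACGTG, at -202 to -197. The shares over all promoters were counted in the same way. In Mt2A and in Mt3, 2 of the metal response cores overlapped a hypoxia core. The antioxidant response core (TGACNNNGC, either strand, 10.1% of promoters) matched 2 times in Mtf1, a number reached by 0.627% of promoters, 1 time each in Mt1a, Mt2A and Slc30a1 and not in Mt3, and the STAT motif (TTCNNNGAA, either strand, 7.67% of promoters) matched in none of the 5 windows. The glucocorticoid response element was searched on the same promoters and also matched in none of the 5 windows. Its motif was strict, with a match in only 4 of the 33469 promoters (0.012%), so a window without a match is the rule. All of these are matches of letters, and no binding was measured.

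**Figure D1:**
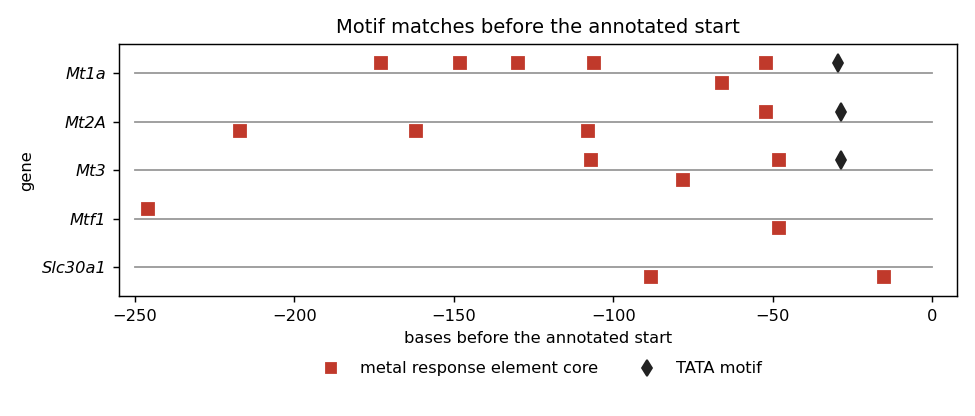
Motif matches in the 250 bases before the annotated start of 5 genes (x axis, bases before the start, one line per gene). Red squares are metal response element cores and black diamonds TATA motifs, drawn above the line for the gene strand and below it for the opposite strand; Mt1a carries 6 red squares, against 4 in Mt2A, 3 in Mt3 and 2 each in Mtf1 and Slc30a1.

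Mt1a and Mt2A code for the metallothioneins found in most tissues. Both were low in every normal artery and many-fold higher in every ischemic artery. Mt1a stood at 2.24, 2.70 and 4.21 CPM in normal replicates 1 to 3, at 48.0, 247 and 127 CPM at 1 h, and at 49.9, 52.6 and 65.0 CPM at 4 h. The lowest ischemic library was thus more than 10 times the highest normal one, and replicate 2 at 1 h was the highest of all. The group means were 3.05 ± 1.03 CPM in normal arteries, 140.7 ± 100.3 CPM at 1 h and 55.8 ± 8.08 CPM at 4 h (SD, n = 3 each). The fitted log2 fold change of Mt1a against normal was 5.53 (SE 0.62) at 1 h and 4.20 (SE 0.59) at 4 h.

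Mt2A followed the same order of libraries within each ischemic group. It stood at 4.82, 8.69 and 5.47 CPM in normal replicates 1 to 3, at 78.6, 559 and 373 CPM at 1 h, and at 90.9, 97.1 and 189 CPM at 4 h. The groups did not overlap with normal at either time, and the spread at 1 h was wide, with replicate 1 well below replicates 2 and 3. The means were 6.32 ± 2.07, 336.9 ± 242 and 125.7 ± 55.0 CPM (SD, n = 3). Mt2A had a fitted log2 fold change of 5.74 (SE 0.77) at 1 h and 4.31 (SE 0.72) at 4 h. By fitted change, Mt2A ranked 41st and Mt1a 46th from the top of the 15482 genes at 1 h, and 64th and 76th at 4 h.

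The proportion of the pair was much the same in all groups. Mt2A had 1.30 to 3.22 counts for each count of Mt1a in normal arteries, 1.64 to 2.94 at 1 h and 1.82 to 2.91 at 4 h, so the ranges overlapped. Together Mt1a and Mt2A took 0.000827% to 0.00119% of all counts in normal arteries. Their share reached 0.0127%, 0.0778% and 0.0608% in replicates 1 to 3 at 1 h, and 0.0114%, 0.0129% and 0.0278% at 4 h.

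**Figure D2:**
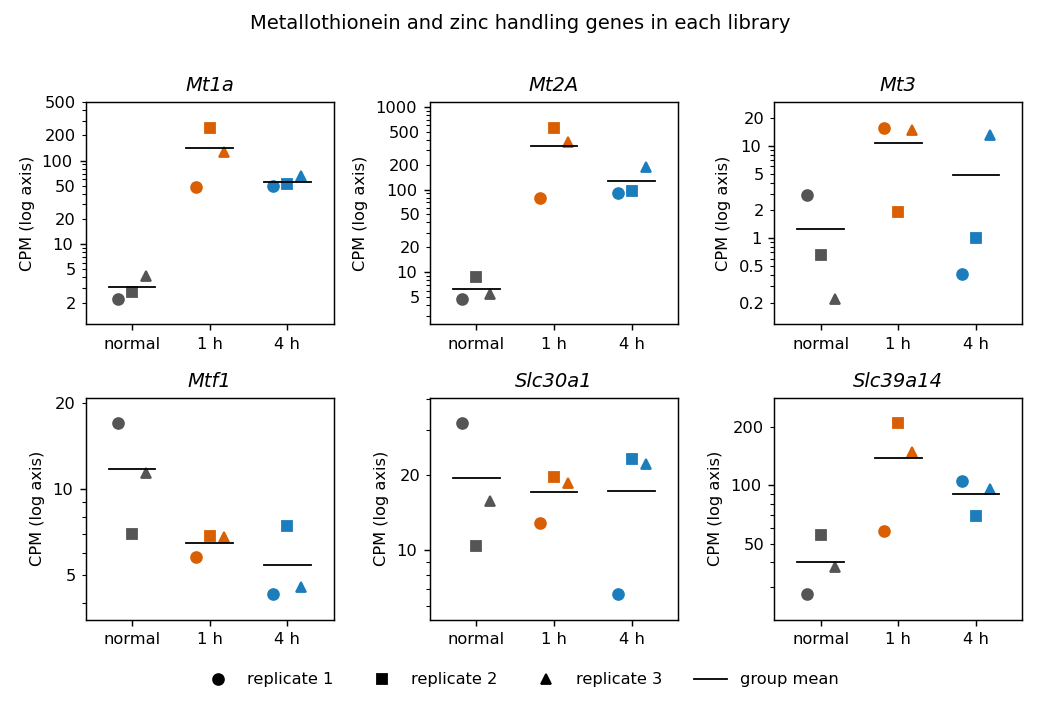
Level of each of the 6 genes in each library (y axis, CPM on a log axis; x axis, normal, 1 h and 4 h). Marker shapes are replicates 1 to 3 and the black lines are group means; Mt1a and Mt2A lie 2.24 to 8.69 CPM in normal arteries and 48.0 CPM or more in all 6 ischemic ones.

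Between 1 h and 4 h the levels of Mt1a and Mt2A were lower on average but the groups overlapped. Replicate 1 at 1 h (48.0 CPM of Mt1a, 78.6 CPM of Mt2A) was below all 3 libraries at 4 h. The fitted log2 fold change of 4 h against 1 h was -1.33 (SE 0.52) for Mt1a and -1.42 (SE 0.64) for Mt2A. Neither was called by edgeR, with an adjusted p of 0.856 for each over all genes tested.

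Other metallothionein symbols of the table bear on how the Mt1a reads were assigned. Mt1m, named here after its values were seen and listed by RefSeq as a pseudogene on another chromosome, had 0 counts in all 3 normal libraries, 5, 52 and 34 counts in replicates 1 to 3 at 1 h, and 9, 9 and 13 counts at 4 h. With a floor of 3 counts over the normal group (0.0665 CPM), the pooled level of Mt1m was at least 29.6-fold higher at 1 h and 11.9-fold at 4 h. This bound holds for the pooled groups and not for each library, since replicates 1 to 3 at 1 h had 0.334, 3.48 and 2.09 CPM. The edgeR F-test did not call Mt1m at 1 h or 4 h against normal (adjusted p = 0.155 and 0.160). Its counts came to 0.697% to 1.65% of those of Mt1a in the 6 ischemic libraries. Near-identical copies can share reads, and how the counting program placed such reads is not given in the sources used here, so the division between Mt1a and Mt1m is uncertain. The pseudogene Mt1-ps1 never passed 3 counts, and Mt4, the metallothionein of squamous epithelium, had 0 counts in all 9 libraries.

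In the GRCr8 annotation the genes Mt1, Mt2A, Mt3 and Mt4 follow each other with no other gene between them. The nearest protein-coding neighbors did not share the size of the change. Nup93, a nuclear pore gene on the Mt1 side, had fitted log2 fold changes of 0.68 at 1 h and 0.13 at 4 h. Bbs2, a cilium gene on the Mt4 side, had -0.16 at both times. Neither was called, with adjusted p-values over all genes of 0.306 and 0.890 for Nup93 and 0.621 and 0.732 for Bbs2.

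Mt3, the neuronal metallothionein of the same cluster, did not follow Mt1a and Mt2A. It stood at 2.91, 0.657 and 0.222 CPM in normal replicates 1 to 3, at 15.8, 1.94 and 14.9 CPM at 1 h, and at 0.413, 0.995 and 13.0 CPM at 4 h. The counts behind these levels were 52, 9 and 3, then 236, 29 and 243, then 5, 12 and 197. The 3 libraries above 10 CPM were the 3 with the highest nerve score, and the groups overlapped at both times. Mt3 had a fitted log2 fold change of 3.08 (SE 1.45) at 1 h and 1.91 (SE 1.40) at 4 h. In a fit that included the nerve score it was 0.51 (SE 0.95) and 0.59. Without the 3 high-nerve libraries it was 0.65 at 1 h, where a single library was left, and -0.80 at 4 h.

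Mt1a and Mt2A were high in ischemic libraries at both ends of the nerve score. Replicates 1 and 2 at 4 h, with nerve scores near the lowest, held 49.9 and 52.6 CPM of Mt1a, against 65.0 CPM in replicate 3 with its high score. Without the 3 high-nerve libraries the fitted log2 fold change at 4 h was 4.08 for Mt1a and 3.91 for Mt2A. At 1 h only replicate 2 was then left, the highest library of both genes, so the values of 6.35 and 6.48 say nothing about the nerve score. With that score in the fit they were 5.62 and 4.22 for Mt1a, and 5.72 and 4.31 for Mt2A. Macrophage markers overlapped between the groups, with sums of 63.4 to 254 CPM in normal arteries, 127 to 257 CPM at 1 h and 50.8 to 146 CPM at 4 h. Exocrine pancreas markers overlapped too, with 18.4 to 76.6, 7.96 to 218 and 9.18 to 186 CPM in the same order. Their sum was 218 CPM in replicate 2 at 1 h and 186 CPM in replicate 3 at 4 h. These are the highest libraries of their groups for Mt1a and Mt2A. Replicates 1 and 3 at 1 h had 7.96 and 13.8 CPM, and replicates 1 and 2 at 4 h 9.18 and 102 CPM. Whether pancreas tissue adds to the levels of Mt1a and Mt2A was not tested.

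**Figure D3:**
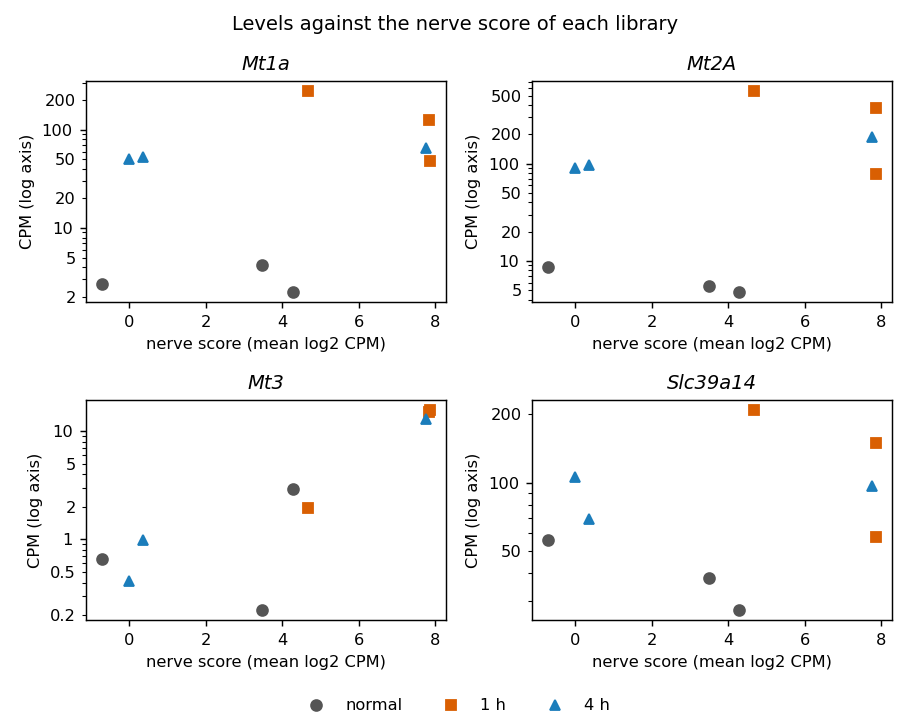
Levels of Mt1a, Mt2A, Mt3 and Slc39a14 (y axis, CPM on a log axis) against the nerve score of the library (x axis, mean log2 CPM of 22 neuronal genes). Circles are normal, squares 1 h and triangles 4 h; the 3 libraries with scores from 7.77 to 7.86 are also the 3 with Mt3 at 13.0 CPM or more, whereas Mt1a and Mt2A are high in ischemic libraries at both ends of the axis.

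Mtf1, which codes for the metal sensor itself, was not higher in ischemic arteries. It stood at 17.0, 7.01 and 11.4 CPM in normal replicates 1 to 3, at 5.82, 6.89 and 6.82 CPM at 1 h, and at 4.30, 7.46 and 4.56 CPM at 4 h. All 3 libraries at 1 h were below all 3 normal ones, though normal replicate 2 exceeded the highest of them by little, and at 4 h the groups overlapped. The means were 11.8 ± 5.02, 6.51 ± 0.597 and 5.44 ± 1.76 CPM (SD, n = 3). The fitted log2 fold change of Mtf1 was -0.86 (SE 0.37) at 1 h and -1.12 (SE 0.37) at 4 h. Leaving out 1 library gave -1.13 to -0.50 at 1 h and -1.41 to -0.76 at 4 h.

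Slc30a1 codes for ZnT1, the exporter that moves zinc out across the cell membrane. Its level showed no separation of the groups: 32.0, 10.4 and 15.7 CPM in normal replicates 1 to 3, 12.8, 19.7 and 18.5 CPM at 1 h, and 6.70, 23.0 and 22.1 CPM at 4 h. Normal replicate 1 was the highest library and replicate 1 at 4 h the lowest. The fitted log2 fold change of Slc30a1 was -0.19 (SE 0.53) at 1 h and -0.17 (SE 0.53) at 4 h. Without normal replicate 1 these values turned positive, to 0.38 and 0.40, so the direction rested on that library.

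Slc39a14 codes for the importer ZIP14. It stood at 27.4, 55.8 and 37.9 CPM in normal replicates 1 to 3, at 57.9, 209.8 and 149 CPM at 1 h, and at 106, 69.2 and 96.5 CPM at 4 h. Every ischemic library was above every normal one, but replicate 1 at 1 h only just exceeded normal replicate 2. As with Mt1a and Mt2A, replicate 2 was the highest and replicate 1 the lowest at 1 h. The means were 40.3 ± 14.3, 139 ± 76.5 and 90.5 ± 19.0 CPM (SD, n = 3). Slc39a14 had a fitted log2 fold change of 1.78 (SE 0.47) at 1 h and 1.17 (SE 0.46) at 4 h. In the fit that included the nerve score it was 2.09 and 1.26, and without the 3 high-nerve libraries it was 1.13 at 4 h. At 1 h that setting left only the highest library of Slc39a14 and says nothing about the nerve score.

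**Figure D4:**
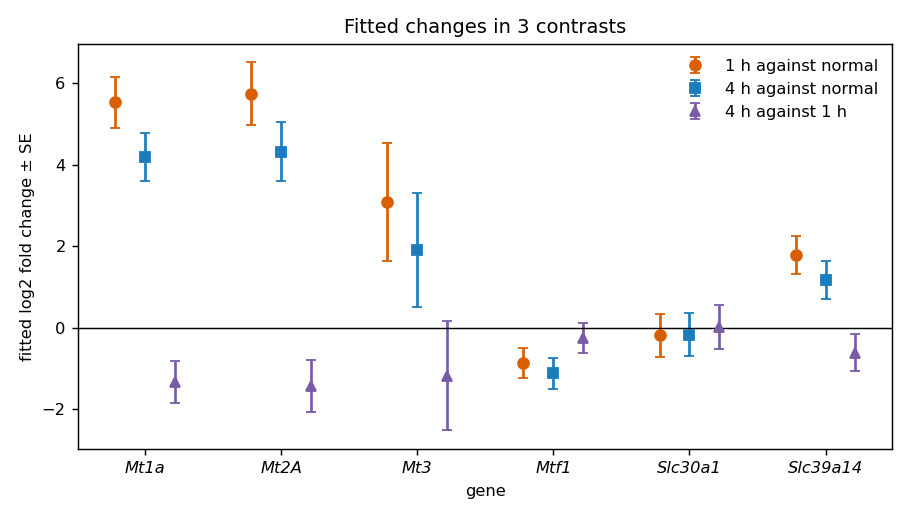
Fitted log2 fold change with its SE (y axis) for the 6 genes (x axis) in the contrasts 1 h against normal (circles), 4 h against normal (squares) and 4 h against 1 h (triangles). Mt1a and Mt2A lie between 4.20 and 5.74 against normal, Slc39a14 between 1.17 and 1.78, Mtf1 below 0 and Slc30a1 close to 0, and the wide bars of Mt3 go with its uneven libraries.

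The calls over these 6 genes are a description, since the genes were put together with results of these libraries known. The threshold for a call was a fold change over 1.5 together with an adjusted p under 0.05. At 1 h against normal edgeR called 1 of the 6, Mt1a, higher, where it called 0.0581% of all genes tested, and 0.0517% as higher. This call was lost in 8 of the 9 fits that left out 1 library, with log2 fold changes of 4.84 (without replicate 2 at 1 h) to 5.94 and adjusted p-values of 0.0119 to 0.290, and it held only without replicate 1 at 1 h. It was also lost when only the normal and 1 h libraries were fitted (adjusted p = 0.143). At 4 h against normal edgeR called 0 of the 6 and 0.0904% of all genes. At an unadjusted p under 0.05 there were 3 higher and 1 lower of the 6 at each time, where 7.98% of all genes tested were higher and 8.67% lower at 1 h, and 5.07% and 7.35% at 4 h. The 3 were Mt1a, Mt2A and Slc39a14 and the 1 was Mtf1. DESeq2 called 3 of the 6 at 1 h, namely Mt1a, Mt2A and Slc39a14, where it called 4.8% of all genes, and 2 at 4 h, Mt1a and Mt2A, where it called 4.08%. Groups that did not overlap with normal were found for 3 genes above and 1 below at 1 h, against 12.8% and 13.5% of all genes, and for 3 above and 0 below at 4 h, against 7.93% and 10.8%. Both contrasts use the same 3 normal libraries. For 4 h against 1 h edgeR called 0 of the 6 and 0 of all genes, DESeq2 called 0 of both, and 1 of the 6, Mt1a, was lower at an unadjusted p under 0.05, as were 1.25% of all genes. No gene of the 6 had groups without overlap between 1 h and 4 h, which 6.24% of all genes had.

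The full zinc transporter families gave a wider view of zinc movement. The table held 24 symbols of the SLC30 and SLC39 families, 19 of which were tested. Of the 8 tested exporters and 11 tested importers edgeR called 0 in each of the 3 contrasts. DESeq2 called 1, Slc39a14, at 1 h, beside 4.8% of all genes, and 0 otherwise. At an unadjusted p under 0.05 there were 0 exporters and 2 importers at 1 h, Slc39a14 and Slc39a11, both higher, beside 7.98% of all genes higher and 8.67% lower. At 4 h there were 1 exporter, Slc30a6, lower, and 1 importer, Slc39a14, higher, beside 5.07% of all genes higher and 7.35% lower. These are 2 of 19 genes at each time, near the shares of all genes. The median log2 fold change of the exporters was 0.27 at 1 h and 0.21 at 4 h, and that of the importers -0.09 and -0.01, beside -0.01 and 0.03 over all genes tested.

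Among the exporters averaging at least 5 CPM, Slc30a4, Slc30a6 and Slc30a7 had the largest fitted changes beside Slc30a1. Slc30a4, which loads zinc into vesicles, had 39.6 to 54.1 CPM in normal arteries, 54.9 to 70.9 CPM at 1 h and 47.3 to 68.5 CPM at 4 h, with log2 fold changes of 0.44 (SE 0.20) and 0.28 (SE 0.20). Slc30a6, which acts in the Golgi, had 9.09 to 12.8 CPM in normal arteries, 5.82 to 9.36 CPM at 1 h and 4.73 to 7.69 CPM at 4 h. Its log2 fold change was -0.42 (SE 0.29) at 1 h and -0.76 (SE 0.29) at 4 h, when all 3 libraries were below normal. Slc30a7, also of the Golgi, had log2 fold changes of 0.38 (SE 0.28) at 1 h and 0.01 (SE 0.28) at 4 h. For 4 h against 1 h it had -0.36 (SE 0.28).

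Among the importers averaging at least 5 CPM, Slc39a6 had the fitted change nearest in size to Slc39a14 at 1 h, but its libraries followed the nerve score. It stood at 19.1, 12.6 and 6.87 CPM in normal replicates 1 to 3, at 61.3, 13.6 and 56.3 CPM at 1 h, and at 10.3, 9.95 and 53.9 CPM at 4 h. The 3 highest libraries were the 3 with the highest nerve score, and its log2 fold change of 1.76 (SE 0.82) at 1 h was 0.28 with the score in the fit and 0.10 without those 3 libraries, with 1 library left at 1 h. Slc39a11 and the manganese exporter Slc30a10, both named after their values were seen, were likewise highest in those 3 libraries. Slc39a11 reached 6.88 to 7.36 CPM there and 1.26 to 2.94 CPM in the other 6 libraries. Its log2 fold change was 1.78 (SE 0.64) at 1 h and 1.17 (SE 0.64) at 4 h, and with the score in the fit 0.68 (SE 0.46) and 0.83 (SE 0.38). Slc30a10 reached 2.77 to 3.32 CPM there and 0.468 CPM at most elsewhere. It had the largest fitted change of all tested exporters, 3.72 (SE 1.80) at 1 h and 2.40 (SE 1.76) at 4 h. With the score in the fit these values became -0.06 and -0.38 (edgeR F-test, unadjusted p = 0.996 and 0.806). At such low counts the SE of that fit does not match its p-value and is not given. Without the 3 libraries Slc39a11 stood at 0.84 and 0.28, and Slc30a10 had too few counts to be tested. Slc39a14 differed from these 3 genes in having its highest level, 209.8 CPM, in replicate 2 at 1 h, outside the high-nerve libraries.

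**Figure D5:**
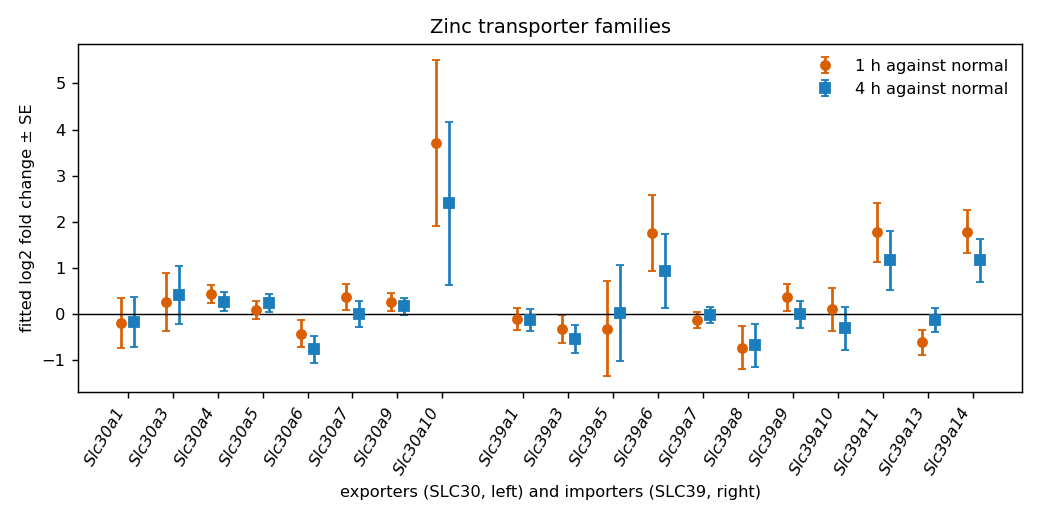
Fitted log2 fold change with its SE (y axis) of the 19 tested zinc transporter genes (x axis, exporters on the left and importers on the right) at 1 h (circles) and 4 h (squares) against normal. Slc39a14 stands at 1.78 and 1.17, and the other genes with large values at 1 h, Slc30a10, Slc39a6 and Slc39a11, are those whose level was highest in the 3 high-nerve libraries.

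Genes with levels most like those of each gene were ranked by Pearson's r of log2 CPM over the 9 libraries, among 10363 candidates. The candidates were tested genes averaging at least 5 CPM. Symbols starting with LOC, RGD, AABR, AC or Rn were passed over, which also leaves out named genes with these letters. The libraries hold both normal and ischemic arteries, so a gene that is low in the 3 normal ones tends to rank high for Mt1a. For Mt1a the 5 closest were Mt2A (r = 0.986), Senp2 (0.977), Cdv3 (0.972), Nfkbiz (0.969) and Cxcl1 (0.967). For Mt2A they were Senp2 (0.991), Mt1a (0.986), Zc3h12a (0.980), Icam1 (0.979) and Nfkbiz (0.977). Nfkbiz, Zc3h12a, Icam1 and Cxcl1 are known as genes of the inflammatory response, and Senp2 codes for a SUMO protease. For Slc39a14 the closest were Stom (0.973), Etf1 (0.960), Medag (0.957), Ell2 (0.955) and Pde4b (0.953). None of these 5 was in another list, though Slc39a14 itself had r = 0.893 with Mt1a and 0.925 with Mt2A. For Mt3 they were Tp53i11 (0.990), Fam219a (0.986), Mpi (0.986), Kiaa0408 (0.985) and Seli (0.984).

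Neighboring lists of metal biology held no further gene called by edgeR. The genes of these lists are named here after their values were seen. Of 12 tested genes of the metal response edgeR called 1 at 1 h, Mt1a, and 0 at 4 h. At an unadjusted p under 0.05 there were 4 at 1 h, namely Mt1a, Mt2A and Gclc, higher, and Mtf1, lower, and 5 at 4 h, the same genes and Mtf2, lower. Over all genes tested 7.98% were higher and 8.67% lower at 1 h, and 5.07% and 7.35% at 4 h. Gclc, the rate-limiting enzyme of glutathione synthesis, had log2 fold changes of 1.04 (SE 0.29) and 0.96 (SE 0.29). DESeq2 called 3 at each time, Mt1a and Mt2A with Gclc at 1 h and with Mtf2 at 4 h. It called 4.8% of all genes at 1 h and 4.08% at 4 h. Of 13 genes of copper handling both tools called 0 at either time, and at an unadjusted p under 0.05 there were 2 at 1 h, Mtf1 and the copper importer Slc31a1, and 1 at 4 h, Mtf1, which is near the share of all genes. The summed level of this list was highest in the 3 high-nerve libraries, at 449, 534 and 522 CPM, against 207 to 311 CPM in the other 6. Slc31a1 had a log2 fold change of 2.73 (SE 1.05) at 1 h and 1.82 (SE 1.02) at 4 h. With the nerve score in the fit these were 0.57 (SE 0.54) and 0.57 (SE 0.42). Without the 3 high-nerve libraries they were 1.00 at 1 h, where a single library was left, and -0.42 at 4 h. Of 15 genes of iron handling edgeR called 0 at either time. At an unadjusted p under 0.05 there were 4 at 1 h, all higher, and 2 at 4 h, 1 higher and 1 lower. Of all genes tested 7.98% were higher at 1 h, and 5.07% higher and 7.35% lower at 4 h. DESeq2 called 3 at 1 h, Hmox1, Lcn2 and Tfrc, and 1 at 4 h, Hmox1, beside 4.8% and 4.08% of all genes. Hmox1, which codes for the enzyme that breaks down heme, had log2 fold changes of 3.17 (SE 0.61) at 1 h and 2.37 (SE 0.60) at 4 h, and its groups did not overlap with normal. The median log2 fold changes at 1 h and 4 h were 0.05 and -0.06 for the metal response, -0.13 and 0.06 for copper and 0.08 and -0.02 for iron, all near the medians of all genes.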

How the data were processed

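The authors deposited raw counts per gene symbol. Reads came from an Illumina HiSeq X instrument after Trizol extraction, and the submitters' processing notes name HISAT2; its version, the counting program, genome build, annotation and strand setting are not given in the sources used here. The study's methods describe microarrays, but the deposited table holds whole-number counts and was treated as such.

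Counts were fitted in R 4.3.3 with edgeR 4.0.16 (filterByExpr, TMM scaling, quasi-likelihood F-test, group as the only term, all 9 libraries), with Benjamini-Hochberg adjustment over all 15482 genes tested. The study's fit was for arrays and could not be used. Standard errors are the log2 fold change over the square root of F. The common biological coefficient of variation was 51.6%. The scripts were tested on simulated data. No libraries were copies (lowest chi-square per degree of freedom 32.2). With 3 against 3, an exact permutation test cannot pass 0.05, so no single-gene permutation test was run. DESeq2 1.42.0, other scalings and filters, a replicate block, a nerve covariate and leaving out each library were alternatives. P-values measure the spread between samples. The series description gives 3 rats per group.

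The genes and lists were chosen with earlier results of these data known. Text names these 6 genes, zinc transporters averaging at least 5 CPM with the 2 largest changes per family and contrast, called genes of the lists, and the 5 genes most like each of 4 of them.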

Additional observations from a re-analysis of the deposited data

How the results depend on the processing

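Depth and replicate spread limit these results: Mt3 rested on 3 to 52 counts in normal arteries and Mt1m on 0. Counts of called genes moved with the fit. At 1 h against normal edgeR called 9 of all genes, DESeq2 702, the fit of only the 2 groups 4 and the fit with the nerve score 17, with 0 to 11 when 1 library was left out. At 4 h the counts were 14, against 610 with DESeq2, 4 with only the 2 groups, 7 with a replicate block and 125 with the nerve score, and 1 to 14 when 1 library was left out. Of the 6 genes, 1 was called at 1 h, against 2 with no filter on low counts, 3 with DESeq2, 0 with only the 2 groups, 0 with a replicate block, 2 without the 3 libraries of highest nerve score (chosen after seeing the data) and 0 to 2 without 1 library. The 2 without 1 library came from leaving out replicate 1 at 1 h, and every other library left out gave 0. At 4 h 0 were called, against 1 with no filter, 2 with DESeq2, 1 with only the 2 groups, 2 with the nerve score, 2 without the high-nerve libraries and 0 to 2 without 1 library. Mt1a at 4 h had log2 fold changes of 4.01 to 4.50 and Mt2A 5.16 to 6.20 at 1 h and 3.90 to 4.62 at 4 h without 1 library. Zinc transporters called at 1 h went from 0 to 1 with DESeq2, and stayed at 0 to 0 without 1 library. For 4 h against 1 h no setting called any gene.

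Of the single-gene values under the alternatives, 489 kept direction and side of the threshold, 16 passed it newly, 10 lost it and 25 changed sign. Without the 3 high-nerve libraries the sign changed for Slc30a1 at 1 h (0.050), Mt3 at 4 h (-0.80), Slc30a7 at 4 h (-0.14), Slc39a6 at 4 h (-0.31), and, for 4 h against 1 h, Slc30a1 (-0.40) and Slc30a6 (0.10). With the nerve score it changed for Slc30a7 at 4 h (-0.0091) and, for 4 h against 1 h, Mt3 (0.079) and Slc39a6 (0.011). With library size only it changed for Slc30a7 at 4 h (-0.12) and Slc30a1 for 4 h against 1 h (-0.14), which was -0.012 with only the 2 groups. Leaving out 1 library gave -0.48 to 0.38 for Slc30a1 at 1 h, -0.44 to 0.40 at 4 h and -0.24 to 0.37 for 4 h against 1 h, -0.15 to 0.18 for Slc30a7 at 4 h, and, lowest without replicate 3 at 4 h, -0.86 to 3.43 for Mt3 and -0.34 to 1.35 for Slc39a6 at 4 h. The cause of these changes was not tested.

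The study's methods can be read as 3 individuals under each condition, but the labels tie no replicate number to an animal and the arteries were taken after death, so the numbers were not used as pairs. Of 9 same-number pairs 4 had correlated deviations over 0.1 (r from -0.65 to 0.66), among them all 3 pairs of replicate 2 (0.42, 0.28 and 0.62), and 4 of 9 libraries correlated best with their own number. With the replicate block edgeR called 7 genes at 1 h and 7 at 4 h, Mt1a at 1 h had a log2 fold change of 5.36 (adjusted p = 0.0596), and Slc30a7 at 4 h was -0.024.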

Other observations

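Lists of genes known to respond to 2 inducers of metallothionein were read beside the 6 genes. Low oxygen had no such list. Whether any of these signals acted on the 6 genes was not tested. Of 17 glucocorticoid targets edgeR called 1 at each time, Nfkbia, higher (named after its values were seen). It called 0.0581% of all genes at 1 h and 0.0904% at 4 h. Of the 17 targets, 11 at 1 h and 13 at 4 h had an unadjusted p under 0.05, all higher. Over all genes tested 7.98% and 5.07% were higher at that threshold. DESeq2 called 8 and 9 of the list, beside 4.8% and 4.08% of all genes. Their median log2 fold change was 1.46 at 1 h and 1.57 at 4 h, beside -0.01 and 0.03 over all genes tested.

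Of 15 genes of the IL-6 and STAT3 response edgeR called 0 at either time, with 10 at 1 h and 3 at 4 h at an unadjusted p under 0.05, all higher, and DESeq2 called 6 and 2, the latter being Cebpb and Il6, beside the same shares of all genes. Their median log2 fold change was 1.66 at 1 h and 0.74 at 4 h. Both lists were put together with results of these libraries known.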
